A study of Mus musculus with 3 samples.

Results

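Chemokines are small secreted proteins that steer migrating cells, and 10 chemokine genes of the mouse were followed here through 3 RNA libraries of vestibular cells. The genes were taken by symbol from the deposited expression table, where each of the 10 has 1 row among 57180 genes. They are Ccl2, Ccl3, Ccl4, Ccl6, Ccl9, Cxcl10, Cxcl12, Cxcl14, Cx3cl1 and Pf4. By the cells best known to make them they were set in 4 classes, with 5 macrophage and myeloid chemokines (Ccl3, Ccl4, Ccl6, Ccl9, Pf4), 2 that many cell types make when stimulated (Ccl2, Cxcl10), 2 stromal ones (Cxcl12, Cxcl14) and 1 neuronal one (Cx3cl1).

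The vestibule is the balance organ of the inner ear. The libraries form 1 group without a control: the genotype is given as WT, no treatment is named, and neither age, sex nor strain appears in the labels. The cells are described as looking like a black ball and are labelled macrophages, whereas the study's title names melanocytes. The labels mention 18 cells and 9 mice, 3 to a group, without assigning them to libraries, so the spread between the 3 libraries may be technical. Total counts ran from 14095521 to 18460546. In limma's test (described below) all 15 macrophage markers listed for this check stood above 1 TPM, as did 9 of 12 melanocyte, 11 of 11 hair cell, 10 of 11 supporting epithelium and 8 of 9 fibroblast markers. Each library is therefore a mixture of transcripts, and for every gene below a smaller number of expressing cells and less RNA per cell cannot be told apart.

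Chemokines are named for the spacing of their first cysteines: CC (Ccl genes), CXC (Cxcl genes and Pf4) and CX3C (Cx3cl1). They act through G protein-coupled receptors on leukocytes and other cells, while atypical receptors take chemokines up without that signal. Some, such as Cxcl12, are made steadily and keep cells in place, and others, such as Cxcl10 and Ccl2, are switched on by interferon or inflammatory signals. In the cochlea, a neighbouring part of the inner ear, fractalkine from Cx3cl1 and its receptor Cx3cr1 on macrophages are known from studies of nerve and hair cell injury.

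Promoter sequences are shown for Cxcl10, which was counted almost wholly in 1 library, and for Cxcl14 and Ccl6, the steadiest members. The RefSeq table used holds the promoters of 8 of the 10 genes, in build GRCm38.p6, from 250 bases before to 50 bases after the transcript start, and 3 of them are printed 5′ to 3′ on the gene's strand. Capitals mark matches, on either strand, to 4 motifs. These are GGGA and CC with any 4 bases between (like a kappaB site), GAAA and GAAA with any 2 bases between (like the interferon-stimulated response element, ISRE), TGANTCA (like an AP-1 site) and TATAAA. Cxcl10 lies on the minus strand at chr5:92348840-92349139, Cxcl14 on the minus strand at chr13:56296502-56296801 and Ccl6 on the minus strand at chr11:83593038-83593337.

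Cxcl10: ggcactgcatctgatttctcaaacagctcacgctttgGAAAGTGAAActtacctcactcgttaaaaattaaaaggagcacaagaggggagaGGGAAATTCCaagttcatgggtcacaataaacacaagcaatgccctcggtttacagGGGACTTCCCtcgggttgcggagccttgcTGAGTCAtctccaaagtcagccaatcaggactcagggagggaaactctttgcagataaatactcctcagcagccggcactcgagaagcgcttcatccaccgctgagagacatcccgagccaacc

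Cxcl14: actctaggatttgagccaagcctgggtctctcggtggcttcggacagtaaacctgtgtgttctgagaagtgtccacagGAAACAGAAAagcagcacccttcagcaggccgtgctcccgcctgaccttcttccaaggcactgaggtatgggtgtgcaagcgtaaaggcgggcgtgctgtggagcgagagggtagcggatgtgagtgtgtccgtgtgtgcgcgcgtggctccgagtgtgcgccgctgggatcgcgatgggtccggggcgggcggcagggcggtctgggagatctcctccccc

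Ccl6: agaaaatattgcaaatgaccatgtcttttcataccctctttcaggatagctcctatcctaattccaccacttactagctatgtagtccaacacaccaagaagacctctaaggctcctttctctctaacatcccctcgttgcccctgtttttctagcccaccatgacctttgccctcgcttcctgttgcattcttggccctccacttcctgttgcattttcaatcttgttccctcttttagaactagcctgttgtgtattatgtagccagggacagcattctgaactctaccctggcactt

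In the Cxcl10 window the capitals are, in order, 1 ISRE-like match starting 213 bases before the start site, 2 kappaB-like matches starting 159 and 103 bases before it, and 1 TGANTCA match 74 bases before it. The second kappaB-like match reads on both strands. No match to any of the 4 motifs overlapped another in these 3 windows. The Cxcl14 window held 1 ISRE-like match, starting 172 bases before the start site, and the Ccl6 window held none of the 4. Among 32851 promoters of the same length, 20.7% held a kappaB-like match, 3.44% an ISRE-like match, 7.81% a TGANTCA match and 13.6% TATAAA. Of the other 5 promoters, Ccl9 had 1 TGANTCA and 3 TATAAA matches, of which 2 overlap, Cx3cl1 had 1 TATAAA match directly before its start, and Ccl3, Cxcl12 and Pf4 had none. The promoters of Cxcl12, Cxcl14 and Cx3cl1 were rich in CpG (observed over expected 0.639, 0.772 and 0.615), above the median of 0.384 over all promoters. The windows of Ccl3, Ccl6, Ccl9 and Pf4 lay between 0.144 and 0.217, and that of Cxcl10 at 0.528. A motif match describes the letters only. Of the steadiest members Cxcl14 has an ISRE-like match and Ccl6 has no match. Of those that varied between libraries Cxcl10 and Ccl9 have matches, and Cxcl12 and Ccl3 have none. The part of these motifs in the levels was not tested.

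Levels are given in TPM, which scales the deposited FPKM (counts per gene length and library total) to the same sum in each library. Whether a gene exceeded 1 TPM was tested with limma, one-sided, on log2(TPM + 1) over the 3 libraries, with Benjamini-Hochberg adjustment over 27265 genes. Genes with an adjusted p under 0.05 are named as called. Of the 10 chemokines 8 were called, where 37.6% of all genes tested and 50.5% of the protein-coding genes among them were. Their median level was 22.0 TPM, against 2.24 TPM over all genes tested. The members were picked with results known, so their comparison with all genes carries no test. The 2 not called were Ccl2 and Cxcl10, the inducible pair. Other counts of genes called in this test have the same background shares of 37.6% and 50.5%. Genes without a count were not tested.

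**Figure D1:**
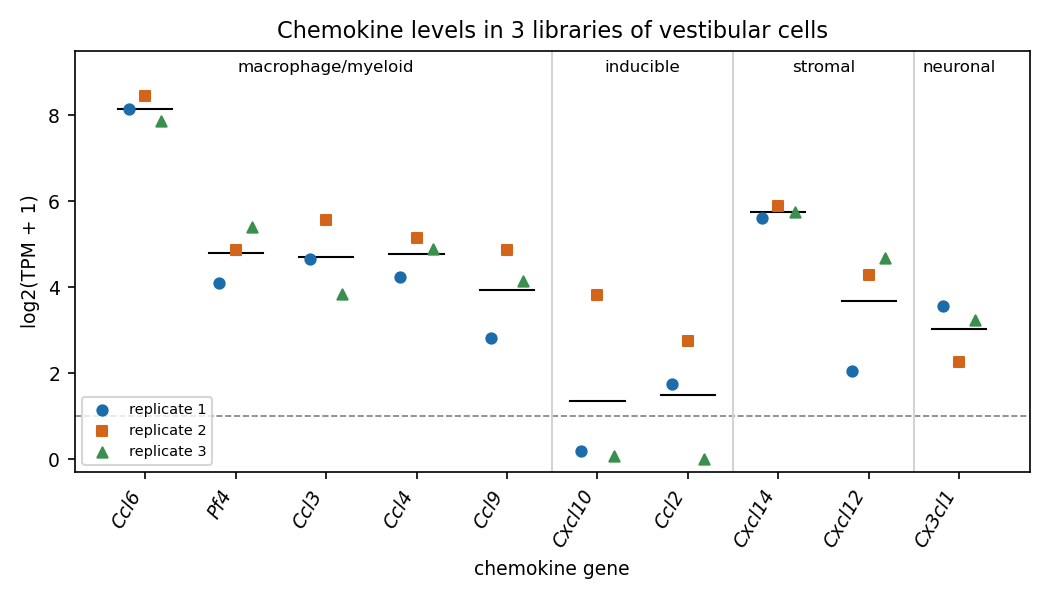
Level of each chemokine as log2(TPM + 1) in replicates 1 to 3 (points), with the mean as a short line, ordered by class; the dashed line marks 1 TPM. Ccl6 stands above every other member in all 3 libraries, and Cxcl10 and Ccl2 have the libraries nearest to 0.

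Among the macrophage and myeloid chemokines Ccl6 was far the most abundant. Ccl6 encodes a CC chemokine that mouse macrophages and other myeloid cells make in quantity and that acts on Ccr1 (ENSMUSG00000018927, chromosome 11, 83478708 to 83483913, GRCm39, as for all gene positions). It stood at 283, 347 and 231 TPM in replicates 1, 2 and 3, from 5353, 5976 and 3890 counts. All 3 libraries were thus close together, at 287 ± 58.4 TPM (SD, n = 3, as for all values with ±). This placed Ccl6 at rank 544 among the genes tested, 7.15 ± 0.21 (SE) above the 1 TPM level on the log2(TPM + 1) scale (limma, adjusted p = 1.3e-05). Ccl6 alone made up 48.3%, 37.0% and 37.5% of the summed TPM of 38 chemokine ligands in replicates 1 to 3.

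Ccl9, also a Ccr1 ligand and made by macrophages and osteoclasts, lies beside Ccl6 (chromosome 11, 83463745 to 83469462). It stood at 6.06, 28.1 and 16.6 TPM in replicates 1 to 3 and was called (limma, adjusted p = 0.00219). Unlike its steady neighbour it was 5.17 times as high in replicate 2 as in replicate 1 (95% interval 4.31 to 6.24, exact binomial on counts per library total, covering counting error only). Of the 8 osteoclast markers 4 were called, 3 had no count in any library, and their summed level was 92.6, 99.0 and 101 TPM in replicates 1 to 3. Their part in the Ccl9 level was not tested.

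Ccl3 and Ccl4, also called MIP-1 alpha and beta, are signals of activated macrophages, and Ccl3 acts on Ccr1 as Ccl6 and Ccl9 do. Ccl3 (chromosome 11, 83538670 to 83540181) stood at 24.4, 46.6 and 13.4 TPM in replicates 1 to 3 (limma, adjusted p = 0.000442). Ccl4 (chromosome 11, 83553410 to 83555509) stood at 18.0, 34.5 and 28.8 TPM (limma, adjusted p = 0.000102). Both were highest in replicate 2, yet they differed in their lowest library, which was replicate 3 for Ccl3 and replicate 1 for Ccl4. The lncRNA gene Gm53692 overlaps Ccl3 and had 71, 0 and 62 counts, so it was empty where Ccl3 was highest, with 139, 241 and 68 counts. The sources used here do not say how reads over both genes were assigned. The immediate early genes, which tissue dissociation can induce, were lowest in replicate 2 as a sum, at 242, 153 and 253 TPM. Of the 8, 3 were called (Ier3, Ier2 and Junb), and 1, Fosb with 0, 4 and 0 counts, was highest in replicate 2. Ier2 (104, 30.2 and 91.6 TPM) and Junb (22.6, 5.40 and 20.4 TPM) were lowest in replicate 2. Ier3, at 98.3, 112 and 126 TPM, was lowest in replicate 1. The part of dissociation in the Ccl3 and Ccl4 levels was not tested.

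Pf4, platelet factor 4, is stored in platelets and is also transcribed by some tissue macrophages (chromosome 5, 90920294 to 90921242). It stood at 16.3, 28.0 and 41.5 TPM in replicates 1 to 3, with 164, 257 and 373 counts (limma, adjusted p = 0.000189). Replicate 3 was the highest and replicate 1 the lowest. None of the 12 platelet and megakaryocyte markers was called by limma (1 had an unadjusted p under 0.05, and edgeR called 1). Ppbp, the platelet basic protein gene next to Pf4, had 0, 47 and 0 counts, and Gp9 and Treml1 had no count in any library. Itga2b, the most abundant marker of the list, had 207, 109 and 265 counts, and Itgb3, Gp1ba and Gp1bb were also counted in all 3 libraries. The whole list summed to 9.95, 11.8 and 9.70 TPM, below Pf4 alone in each library. Erythroid markers, by contrast, summed to 21791, 29998 and 51507 TPM, with replicate 3 highest as for Pf4. The mean level of the 15 macrophage markers was 6.04, 6.22 and 6.46 on the log2(TPM + 1) scale, also highest in replicate 3. Their sum was highest in replicate 1, at 9007, 5792 and 6580 TPM. The part of platelets, erythroid cells or macrophages in the Pf4 level was not tested.

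The inducible pair differed most between libraries. Cxcl10, the interferon-induced ligand of Cxcr3 (chromosome 5, 92494497 to 92496748), had 5, 420 and 2 counts, or 0.141, 13.0 and 0.0634 TPM in replicates 1 to 3. Replicate 2 held almost all of it, and the 2 counts of replicate 3 lie under the floor of 3 counts. Per library total Cxcl10 was 103 times as high in replicate 2 as in replicate 1 (95% interval 43.7 to 318). Against replicate 3 the ratio was 196, with an interval of 54.0 to 1625. With 1 high library of 3, the gene was not called (limma, adjusted p = 0.619), and its mean of 4.42 ± 7.47 TPM rests on replicate 2. Cxcl10 lies within the span of Art3, which had 481, 938 and 329 counts. Art3 was thus also highest in replicate 2, and in replicates 1 and 3 it had counts beside almost none for Cxcl10.

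Other interferon-inducible transcripts were high in the same library. Ifit3 stood at 384, 2734 and 282 TPM and Ifit1 at 53.3, 950 and 37.6 TPM in replicates 1 to 3, the most abundant genes of the list of inducers and sensors. The pattern was not shared by all 15 genes of that list: Irf7 was highest in replicate 1 (17.8, 10.1 and 10.3 TPM), and Isg15 stood at 11.7, 75.4 and 76.1 TPM. The cytokine Il1b had 0, 175 and 0 counts, while Il6, Ifng and Ifnb1 had no count in any library, which allows up to 3 counts in each. Of the 15 genes 6 were called, and their part in the Cxcl10 level was not tested. Irf7, Isg15 and the cytokines were picked for mention with their values known. Among the Cxcr3 ligands that neighbour Cxcl10, Cxcl9 had no count and Cxcl11 had 23, 0 and 4 counts. Cxcl10 was therefore the only one of the 3 that was high in replicate 2.

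Ccl2, or MCP-1, attracts monocytes through Ccr2 (chromosome 11, 81926397 to 81928279). It had 34, 74 and 0 counts, or 2.40, 5.74 and 0 TPM, and the 0 in replicate 3 allows up to 0.237 TPM. Replicate 2 was again highest, at least 23.0-fold higher than replicate 3 per library total when replicate 3 is set to 3 counts. It was 2.66 times as high as replicate 1 (95% interval 1.75 to 4.12). Ccl2 was not called (limma, adjusted p = 0.445).

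The CC chemokine genes of chromosome 11 lie in a pair of clusters, and their levels were set side by side along the chromosome. In the cluster of Ccl2 (81926397 to 82007625 from Ccl2 to Ccl8) the monocyte and eosinophil attractants Ccl7, Ccl11, Ccl12 and Ccl8 stood above Ccl2 in replicates 1 and 2. Ccl12, the most abundant of them on average, stood at 22.8, 99.6 and 42.3 TPM in replicates 1 to 3. Ccl7 stood at 10.3, 36.6 and 0.189 TPM, low in the library where Ccl2 had no count. Ccl11, or eotaxin, stood at 41.8, 54.3 and 7.82 TPM and was above Ccl12 in replicate 1. Ccl8 stood at 8.44, 52.7 and 46.1 TPM and was above Ccl12 in replicate 3. All 5 genes of that cluster were highest in replicate 2, though in replicate 3 Ccl2, Ccl7 and Ccl11 were low and Ccl12 and Ccl8 were not. In the second cluster (83416604 to 83555509 from Ccl5 to Ccl4) Ccl9, Ccl6, Ccl3 and Ccl4 were highest in replicate 2 and Ccl5, a T cell and macrophage attractant, in replicate 3 (2.25, 4.81 and 6.55 TPM).

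**Figure D2:**
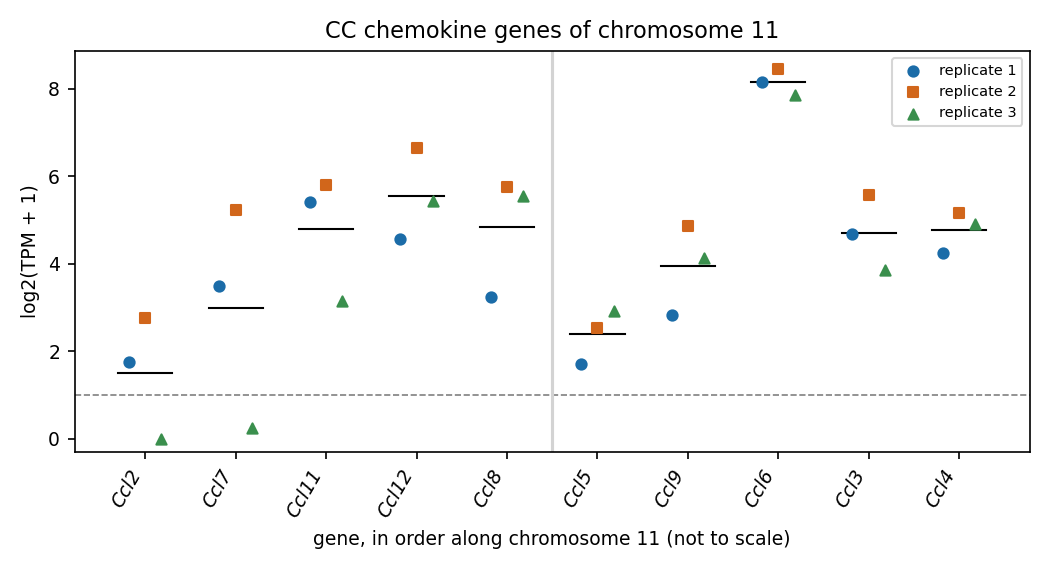
Levels as log2(TPM + 1) of 10 CC chemokine genes in their order along chromosome 11 (distances not to scale), with replicates 1 to 3 as points and the mean as a bar; the vertical line parts the 2 clusters and the dashed line marks 1 TPM. Replicate 2 is highest for 9 of the 10 genes, and Ccl5 is the exception.

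The stromal pair differed in steadiness. Cxcl14, a chemokine of epithelia and fibroblasts (chromosome 13, 56436456 to 56444364), stood at 47.6, 58.2 and 53.2 TPM in replicates 1 to 3, the second highest member on average. Its coefficient of variation of 10.0% was the lowest of the 10, where genes called above 1 TPM had a median of 35.4%. It was called with an adjusted p of 1.61e-05 in limma's test. Fibroblast markers summed to 16535, 18004 and 12218 TPM in replicates 1 to 3.

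Cxcl12, or SDF-1, which stromal and vascular cells make to hold Cxcr4-bearing cells (chromosome 6, 117145496 to 117158328), stood at 3.15, 18.6 and 24.6 TPM. Replicate 1 was low, with 303 counts beside 1627 and 2106. Replicate 3 was 9.10 times as high as replicate 1 (95% interval 8.07 to 10.3). Cxcl12 was called (limma, adjusted p = 0.00845). Beside it, the 8 endothelial markers, 2 of them called, summed to 19.4, 32.5 and 35.7 TPM, and the 8 markers of pericytes and smooth muscle to 26.1, 20.5 and 34.1 TPM. Endothelial Cdh5 and Tek had no count in replicate 1. The part of these cells in the Cxcl12 level was not tested.

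Cx3cl1 encodes fractalkine, a membrane-bound chemokine of neurons, epithelia and endothelium that proteases can release (chromosome 8, 95498637 to 95509055). It stood at 10.8, 3.79 and 8.51 TPM in replicates 1 to 3 and was called (limma, adjusted p = 0.00513). Replicate 2 was the lowest, 2.55 times below replicate 1 (95% interval 2.09 to 3.13), so that Cx3cl1 was the only member highest in replicate 1. Neuron markers, 4 of 10 called, summed to 75.7, 73.6 and 347 TPM and were thus highest in replicate 3, unlike Cx3cl1. Markers of Schwann cells summed to 360, 137 and 289 TPM and those of hair cells to 601, 459 and 392 TPM. Those of supporting epithelium summed to 2709, 1852 and 1853 TPM. These 3 lists were highest in replicate 1, as 43.7% of all called genes were. Endothelial markers summed to 19.4, 32.5 and 35.7 TPM and were lowest there. Which cells gave the Cx3cl1 transcripts was not tested, and the label neuronal stands only for the class. Adam10, a protease that sheds fractalkine, was called at 16.6, 2.06 and 9.09 TPM, lowest in replicate 2 as Cx3cl1 was. Adam17, the other such protease, was not called, at 3.75, 0.910 and 2.13 TPM.

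Set by class, the macrophage and myeloid chemokines took the largest share of chemokine transcripts in each library. Over 38 ligand genes, the 10 members and 28 others, the summed level was 586, 940 and 616 TPM in replicates 1 to 3. The macrophage and myeloid class took 59.4%, 51.6% and 53.7% of it, the stromal class 8.66%, 8.17% and 12.6%, and Cx3cl1 1.84%, 0.403% and 1.38%. The inducible pair took 0.433%, 2.00% and 0.0103%. The mean level of the macrophage and myeloid class minus that of the stromal class was 0.97, 0.69 and 0.01 on the log2(TPM + 1) scale, higher in 3 of 3 libraries with almost no difference in replicate 3. Without Ccl6 the mean difference was -0.16 ± 0.42, within the spread and above 0 in 2 of 3 libraries, and in CPM, which leaves gene length out, the difference of the full class was -1.18 against 0.56 in TPM. As a sum the class without Ccl6, then 4 genes, stood at 64.7, 137 and 100.3 TPM in replicates 1 to 3. The stromal class, with 2 genes, stood at 50.8, 76.8 and 77.8 TPM. The lead in mean level thus depended on Ccl6 and on levels taken per length. The lead in summed TPM held without Ccl6, but over more genes and likewise per length. In CPM those 4 genes had means of 24.5 (Ccl9), 17.5 (Pf4), 9.44 (Ccl3) and 7.97 (Ccl4), against 91.2 for Cxcl12 alone. Against Cx3cl1 the macrophage and myeloid class was higher by 2.25 ± 1.16 and the stromal class by 1.69 ± 1.30, each in 3 of 3 libraries. The lead of the stromal class was small in replicate 1, at 0.27, against 2.83 and 1.97 in replicates 2 and 3. The first difference was 1.53 ± 1.24 without Ccl6 and 0.56 in CPM, and the second was 1.12 without replicate 2. These class values carry no test, since the members were picked with results known.

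**Figure D3:**
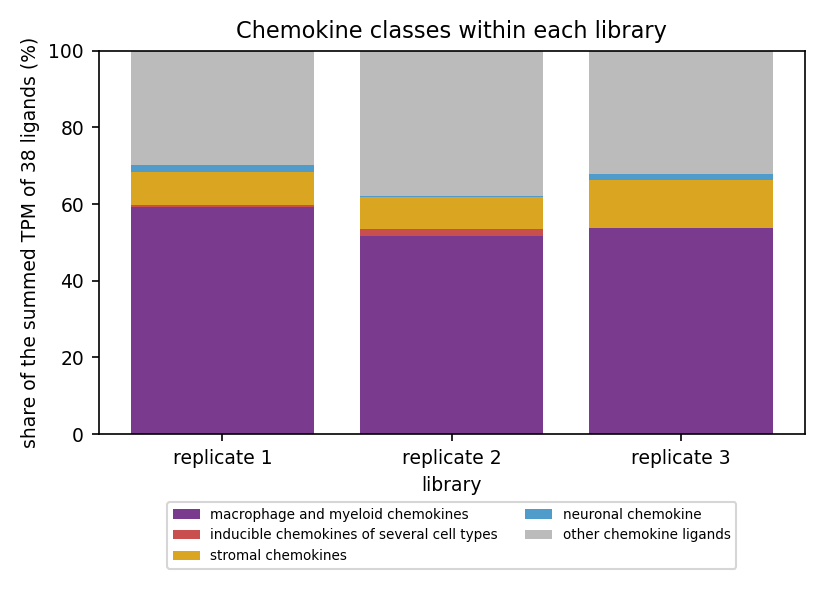
Share of the summed TPM of 38 chemokine ligands (y axis, in percent) held by each class in replicates 1 to 3. Macrophage and myeloid chemokines hold the largest part of each bar, between 51.6% and 59.4%.

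By mean level on the log2(TPM + 1) scale the order was Ccl6, Cxcl14, Pf4, Ccl4, Ccl3, Ccl9, Cxcl12, Cx3cl1, Ccl2 and Cxcl10. Ccl6 exceeded Cxcl14 in 3 of 3 libraries by 2.40 ± 0.26, and Cxcl14 exceeded Pf4 in 3 of 3 by 0.96 ± 0.57 (two-sided exact permutation of signs, p = 0.25 for both, which is the lowest possible with 3 libraries, and 0.9 after adjustment over 9 pairs). The other 7 neighbouring pairs differed by less than the SD of their difference. Below the first 2 genes, the order was therefore not fixed by these libraries. With the longest transcript as gene length, Cxcl14 minus Pf4 was -0.07 and Ccl9 minus Cxcl12 was -0.73.

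The length behind FPKM matters for this order. For 91.7% of the genes checked, the length implied by count and FPKM came within 1% of the sum of all distinct exons in GENCODE M21, in which bases shared by overlapping exons are counted more than once. For Pf4 it was 1359 bp where the merged exons measure 721 bp, for Cxcl10 4765 against 2252 bp, for Ccl6 2546 against 1795 bp, and for Ccl3 and Ccl4 the 2 lengths were equal. With merged exon lengths, chosen after seeing the data, Pf4 stood at 42.9 ± 19.2 TPM, Cxcl14 at 46.8 ± 5.10, Ccl3 at 22.4 ± 13.6 and Cxcl10 at 7.48 ± 12.7. The same 8 members were called, where 38.4% of all genes were.

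The other 28 ligands were lower as a group than the members, which were picked with results known. Their median over all 28, uncounted genes included, was 2.14 TPM. Of these, 22 had a count and were tested, and 10 of the 22 were called. For comparison, 37.6% of all genes tested and 50.5% of the protein-coding genes among them were called. The other 6 ligands had no count in any library (Ccl1, Ccl22, Ccl26, Cxcl9, Cxcl15 and Xcl1). Cxcl16, a membrane-bound chemokine of macrophages and endothelium, was the steadiest at a high level, with 30.1, 38.9 and 39.5 TPM in replicates 1 to 3 (limma, adjusted p = 2.86e-05). Ccl19 and Ccl21a, which guide lymphocytes and dendritic cells through Ccr7, stood at 18.5 ± 2.98 and 6.88 ± 2.35 TPM, and Ccl27a, a skin chemokine, at 10.0 ± 2.12 TPM. These 3 have near-identical copies (Ccl19-ps3 had 133, 147 and 112 counts), so their levels are uncertain. Ccl17, the seventh by level of those called, stood at 1.83, 5.18 and 18.5 TPM and was not called without replicate 3 (limma, adjusted p = 0.138). Neutrophil attractants had most of their counts in replicate 2: Cxcl2 had 1, 77 and 0 counts, Cxcl5 0, 53 and 19, Cxcl3 0, 5 and 0 and Cxcl1 0, 2 and 0.

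Receptors of these ligands were scarce. Of the 18 conventional chemokine receptors 9 had no count in any library and were not tested. Of the 9 with a count none was called by limma, none had an unadjusted p under 0.05, and edgeR called 1, Ccr1. Ccr1, the receptor of Ccl6, Ccl9 and Ccl3, had 118, 118 and 12 counts, or 5.61, 6.16 and 0.640 TPM in replicates 1 to 3, and passed limma's test without replicate 3 (adjusted p = 0.00648). Ccr2, the receptor of Ccl2, stood at 0.0467, 1.06 and 0.430 TPM, highest in replicate 2 as its ligand was. Cxcr4 stood at 0.498, 1.04 and 0.223 TPM beside a ligand, Cxcl12, at 3.15, 18.6 and 24.6 TPM. Cx3cr1 stood at 0.382, 1.42 and 2.04 TPM, its lowest library being the one in which Cx3cl1 was highest, and Cxcr3 had no count in any library. The atypical receptor Ackr3, which takes up Cxcl12, was the exception, at 31.1, 18.3 and 16.4 TPM (limma, adjusted p = 0.000158). Its highest library was replicate 1, where Cxcl12 was lowest. Of 5 atypical receptors 4 had a count, and Ackr3 alone was called by limma, against 2 with an unadjusted p under 0.05 and 3 called by edgeR.

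**Figure D4:**
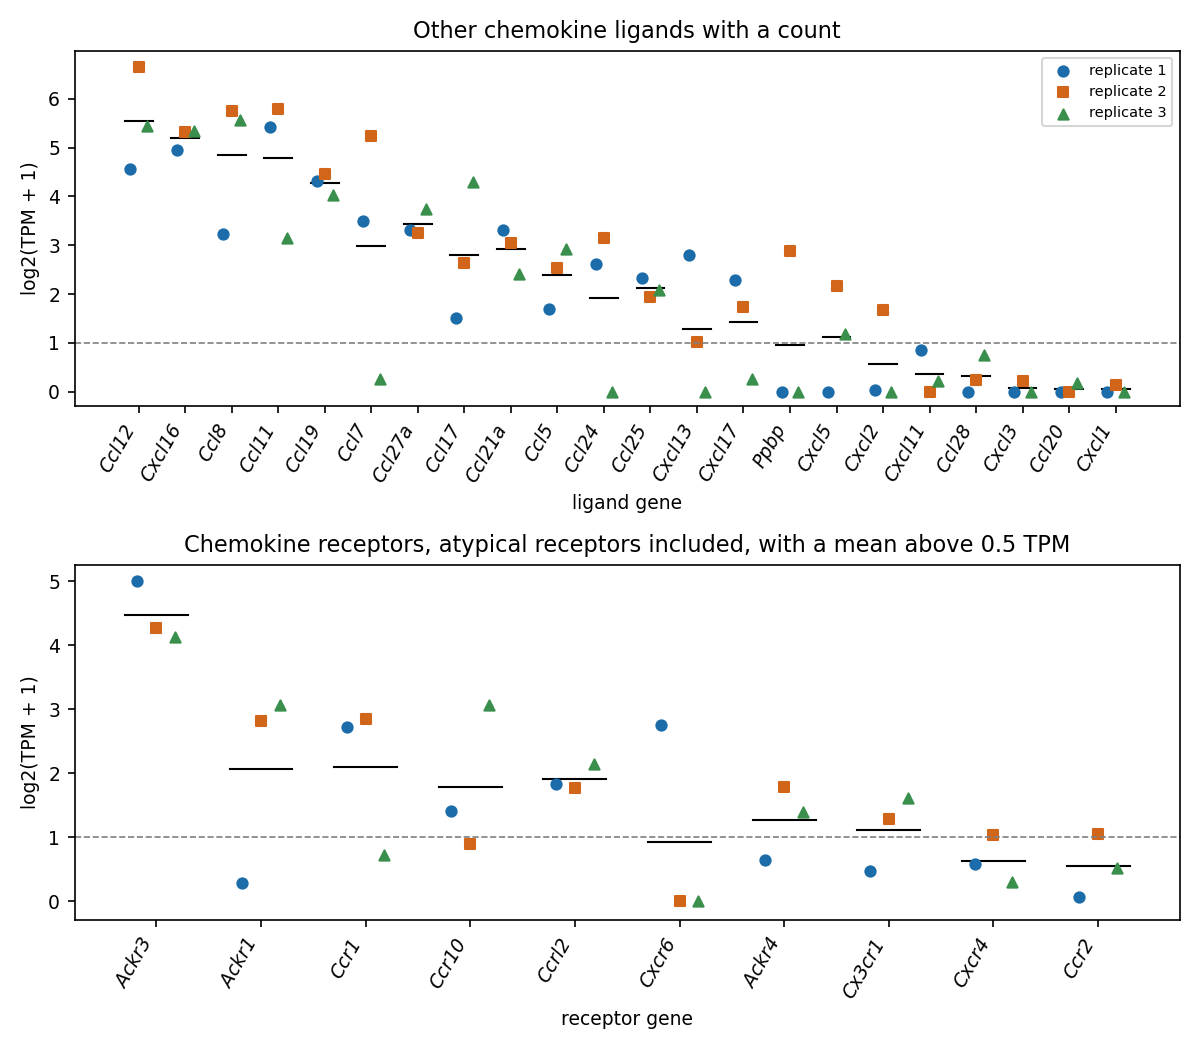
Levels as log2(TPM + 1) of the other chemokine ligands (upper panel) that had a count and of conventional and atypical receptors with a mean above 0.5 TPM (lower panel), in replicates 1 to 3 (points) with the mean as a short line; the dashed line marks 1 TPM. Ackr3 stands above every other receptor in each library.

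Downstream of the receptors, 7 of 14 signalling genes were called, near the 50.5% of protein-coding genes, led by the G protein subunit gene Gnai3 (94.8, 79.6 and 47.4 TPM in replicates 1 to 3) and the regulator Rgs2 (73.9, 49.8 and 45.1 TPM). Of 8 proteases that trim or shed chemokines 5 were called, with Mmp12, the macrophage elastase, at 85.9, 70.3 and 40.4 TPM and Adam10 next. Gnai3, Rgs2 and Mmp12 were highest in replicate 1, as 43.7% of all called genes were, while 8 of the 14 signalling genes were highest in replicate 3.

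Replicate 2 was the highest library for 7 of the 10 members, Pf4, Cxcl12 and Cx3cl1 being the exceptions. Among the 8 called members this was so for 5, or 62.5%, where it was so for 21.6% of the genes called above 1 TPM. Of the 10 other ligands called it was so for 4, or 40%. With TMM factors, edgeR's scaling between libraries, the members' count stayed at 7 of 10. The share of called genes rose to 29.9% and that of the other called ligands to 50%. The margin was narrow for Ccl4 and Cxcl14, whose ratios of replicate 2 to replicate 3 were 1.14 (95% interval 0.896 to 1.46) and 1.04 (0.942 to 1.16). Beside this, the 9 neutrophil markers summed to 20.2, 418 and 144 TPM in replicates 1 to 3, with 3 called and 8 of 9 highest in replicate 2. The 8 monocyte markers summed to 3.19, 228 and 27.9 TPM, with 0 called by limma (1 at an unadjusted p under 0.05, 3 by edgeR) and 6 highest in replicate 2. Chil3 made up most of the sum in replicate 2, and without it the list stood at 3.00, 38.4 and 24.8 TPM, with Fn1 and S100a4 highest in replicate 3. In replicate 1, 2 neutrophil markers and 1 monocyte marker had no count. The 15 macrophage markers did not share the pattern, at 9007, 5792 and 6580 TPM with 2 of 15 highest in replicate 2. Lyz2 made up most of each sum, and the mean level of the list was 6.04, 6.22 and 6.46 on the log2(TPM + 1) scale, with 8 of 15 highest in replicate 3. Among the other lists, fibroblast (7.08, 7.26 and 6.84) and T and NK cell markers (0.183, 1.02 and 0.569) were highest in replicate 2 by mean level. So were platelet (0.635, 0.669 and 0.508) and melanocyte markers (4.06, 4.29 and 4.19). The part of neutrophils, monocytes or any of these cells in the chemokine levels was not tested.

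**Figure D5:**
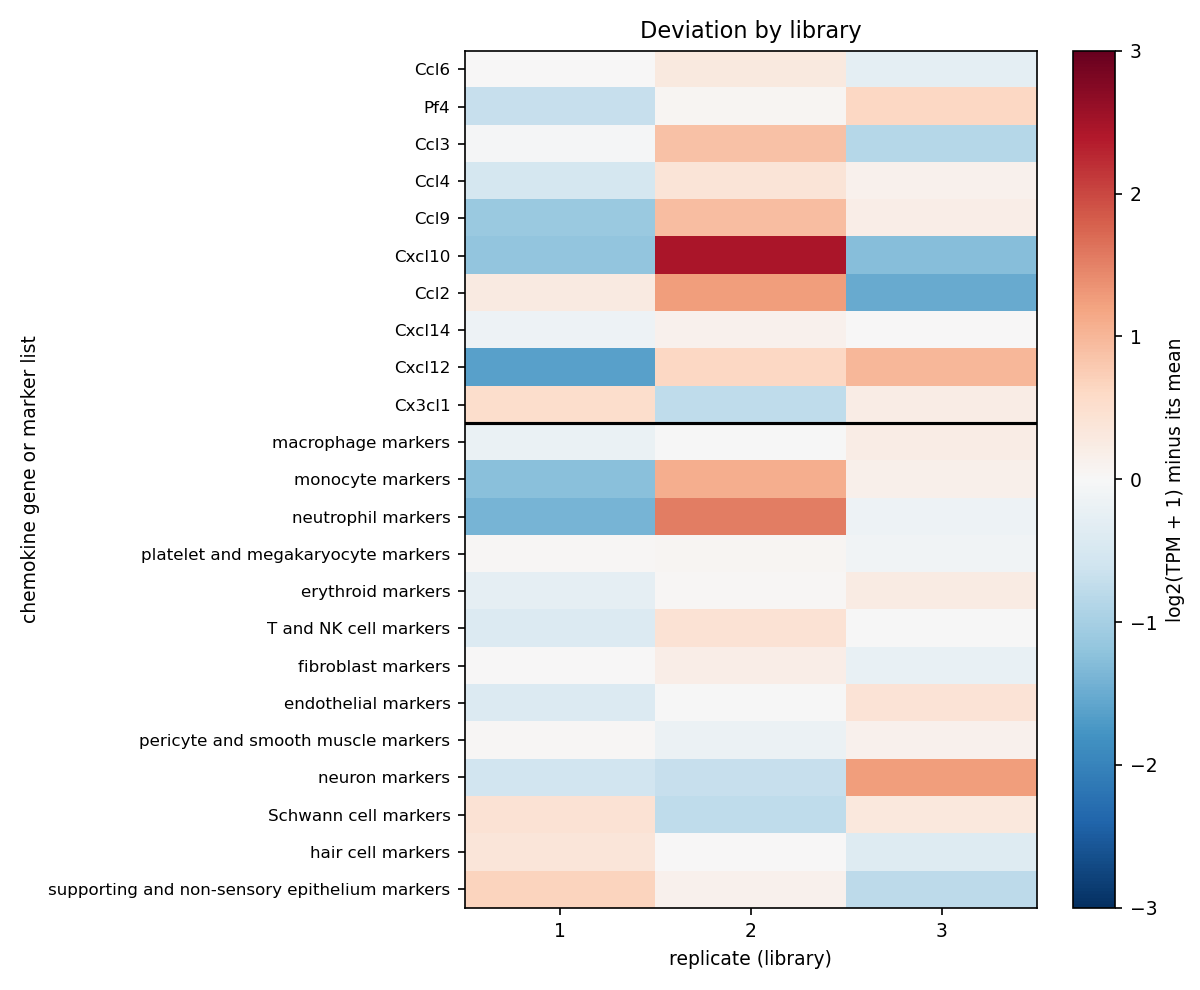
Deviation of each chemokine gene's log2(TPM + 1), and of each marker list's mean level, from its own mean over the libraries (colour), for replicates 1 to 3. Markers of monocytes, neutrophils, T and NK cells, fibroblasts and platelets are highest in replicate 2, and the other lists shown are not. Of the 10 members above the line 7 are highest there, and Cx3cl1 is lowest.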

How the data were processed

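RNA of 3 libraries was deposited as 1 table that holds raw counts per gene and FPKM, per the file headers. HISAT2, StringTie, edgeR and the build GRCm39 were used per the submitters' processing notes, without role, order or version, and no source used here says how reads of overlapping genes or either strand were handled. Cells were amplified with SMART-Seq HT, per the labels' protocols, without molecular identifiers, so intervals cover counting error only. The deposited FPKM was rescaled to TPM. Of 57180 genes, the 27265 counted in any library were tested with limma 3.58.1 in R 4.3.3 on log2(TPM + 1) with an intercept and a mean-variance trend. edgeR 4.0.16 on the counts and DESeq2 1.42.0 size factors were alternatives, and the tests were tried on simulated data. edgeR's quasi-likelihood F was formed from its fit against the count expected at 1 TPM. Ratios between libraries use counts per library total with exact 95% binomial intervals. A floor of 3 counts equals 0.163 to 0.213 CPM. All 10 members are named, with other ligands and receptors called (at most 8 by level), the members' receptors, Ppbp and of some other lists the top 2 genes (the rule asked for these in every list), and genes named beyond this rule were chosen after their values were seen. Members and lists were chosen with earlier results of these data known. Likeness to other genes was not ranked, as 3 libraries are too few. Some genes of the lists enter the counts and sums but are not reported here by name.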

Additional observations from a re-analysis of the deposited data

How the results depend on the processing

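The members' calls were recomputed under 14 alternatives, of which Ccl2, with no count in replicate 3, had no value among genes counted in all 3 libraries. In 13 of them 8 members were called, and with all genes of the table, empty ones included, 4 were, while the other ligands fell from 10 to 4 and all called genes ranged from 6924 to 12533. The calls lost there were Ccl3, Ccl9, Cxcl12 and Cx3cl1 (limma, adjusted p = 0.0523, 0.0978, 0.185 and 0.0904), and no member's call was lost in any other alternative. The calls of Ccl17, Ccl5 and Ccl25 were each lost under 5 or more alternatives. With edgeR 1 conventional receptor was called, and without 1 replicate 0 to 1. Atypical receptors called numbered 2 with a pseudocount of 0.1, in CPM, with all genes, among genes counted in all 3 libraries, without the trend, and with merged exon or longest transcript lengths, 3 with edgeR, and 1 to 2 without 1 replicate. The difference between the macrophage and stromal classes was -1.18 in CPM and 0.0525 with medians over members, and that between the macrophage class and Cx3cl1 was 0.56 in CPM. Of 9 neighbouring pairs, 2 were ordered alike in all libraries, against 6 in CPM and 3 to 6 without 1 replicate, where only 2 libraries have to match. The cause of these changes was not tested, apart from the fewer libraries. Merged exon and longest transcript lengths were added after seeing the data. How many cells each library holds is not known here, and counting intervals leave out the spread of amplification.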
